A study of Mus musculus with 21 samples.

Results

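The 10 genes described here are the kinases and adaptors of the c-Jun N-terminal kinase (JNK) cascade: the JNKs Mapk8, Mapk9 and Mapk10, the MAP2Ks Map2k4 and Map2k7, the MAP3Ks Map3k1 and Map3k7, the Map3k7 partners Tab1 and Tab2, and the scaffold Mapk8ip1. They were taken by symbol from the 34478 genes of the deposited table, and all 10 were found. The RNA came from 6 primary cell lines of murine pancreatic ductal adenocarcinoma (PDAC), numbered #3, #4, #6, #7, #9 and #10. Each line grew out of tumor pieces of mice with the alleles Trp53loxP/loxP and Ptf1awt/Cre, so every sample, parental cells included, carries a deletable Trp53 and Cre driven by the pancreatic Ptf1a locus. Parental cells had never received a MEK inhibitor (MEKi, n = 6 lines), and resistant cells were kept in the MEKi trametinib at 100 times the IC50 of their line (n = 6). Cells named P12 were resistant cells after 12 passages without the drug (n = 6), and cells named P5 those after 5 passages (n = 3, lines #3, #7 and #9). For P5 of lines #7 and #9 a second label field gives 12 passages, and the title is followed here. Each line was sequenced once in each state, so the lines are the replicates, and the study describes the resistant cells it examined as clonally expanded, which limits what a resistant sample stands for.

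JNK signaling runs as a relay in which a MAP3K phosphorylates a MAP2K and the MAP2K phosphorylates JNK, which in turn phosphorylates Jun, a subunit of the AP1 transcription factor. Stress and inflammatory cytokines are the usual inputs, and the cascade runs beside the RAF-MEK-ERK cascade that trametinib blocks. In pancreatic cancer cells MAP2K4 is known as a gene that is recurrently inactivated in tumors. RNA levels, which are all that is measured here, do not report the phosphorylation through which these kinases act.

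The sum of all normalized counts in a sample lay between 2.86e+07 and 3.71e+07, and the step between its low values put the depth at 24.1 to 42.7 M reads (median 32.5 M), with medians of 34.9 M in parental, 32.0 M in resistant, 32.5 M in P5 and 32.1 M in P12 cells. A value of 3 reads, taken as the smallest that can be read, then equals 2.31 to 4.07 normalized counts, for counting error only. Of the values under 40 in a sample, 33.8% to 62.2% fell on multiples of the step, so depth and floor are approximate. The drug state showed in Dusp6, an ERK target, which lay between 5249 and 9449 normalized counts in parental, 4.49 and 681 in resistant and 5098 and 16848 in P12 cells. Of the markers of the epithelial label, Krt8, Krt18 and Krt19 were above 3 reads in all 21 samples and Cdh1 in 20, but Epcam was at 0 in 20 samples and at 3.61 normalized counts in the other. The summed epithelial list ran from 15800 to 251136 normalized counts in parental and from 644 to 209832 in resistant cells. Of the immune markers Ptprc reached at most 20.01 and Cd3e at most 4.599 normalized counts. Cd68, of the same list, was above 3 reads in all 21 samples (118 to 404). The summed endothelial markers (4 genes) ran from 17.2 to 890.2 over all states. Of the acinar, endocrine and neural markers, Ptf1a, Neurod1 and Elavl4 were above 3 reads in 0 samples, Amy2a5 in 1, and Cpa1 and Ins2 in 2 each. Chga passed that level in 10 samples, Elavl3 in 18, Cela1 in 20 (at most 931) and Syp in 21 (at most 187). The summed mesenchymal list ran from 49190 to 120336 normalized counts in parental and from 37637 to 122496 in resistant cells.

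Levels of different genes are set side by side here mainly per kilobase of the longest coding transcript. On this scale the MAP2K Map2k7 was highest in parental cells with 847 ± 146 normalized counts per kb (SD, n = 6 lines). Tab2 followed with 809 ± 61.5, Map2k4 with 612 ± 55.2, Map3k7 with 435 ± 96.1, Tab1 with 402 ± 52.6, Map3k1 with 368 ± 144, Mapk9 with 305 ± 44.8 and Mapk8 with 193 ± 40.4. The scaffold Mapk8ip1 had 111 ± 58.1 and Mapk10 0.786 ± 0.547. Map2k7 and Tab2 did not differ beyond their spread, nor did Map3k7, Tab1 and Map3k1 from each other, whereas Mapk10 lay far under every other gene. In resistant cells Mapk8ip1 came after Map2k7 (1097 ± 207) and Tab2 (931 ± 208) with 856 ± 1013, an SD above its mean. Map3k1 was next to last with 178 ± 39.4. That place depended on the length used. Per kb of all exons of a gene joined, Mapk8 was next to last in resistant cells with a mean of 134, against 166 for Map3k1. On that length the parental means of Map2k7 and Tab2 were 780 and 578. Map2k7 shares its strand with an overlapping coding gene, Gm49320, so that its counts are uncertain, and Mapk8ip1 overlaps 1700029I15Rik on the opposite strand.

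**Figure D1:**
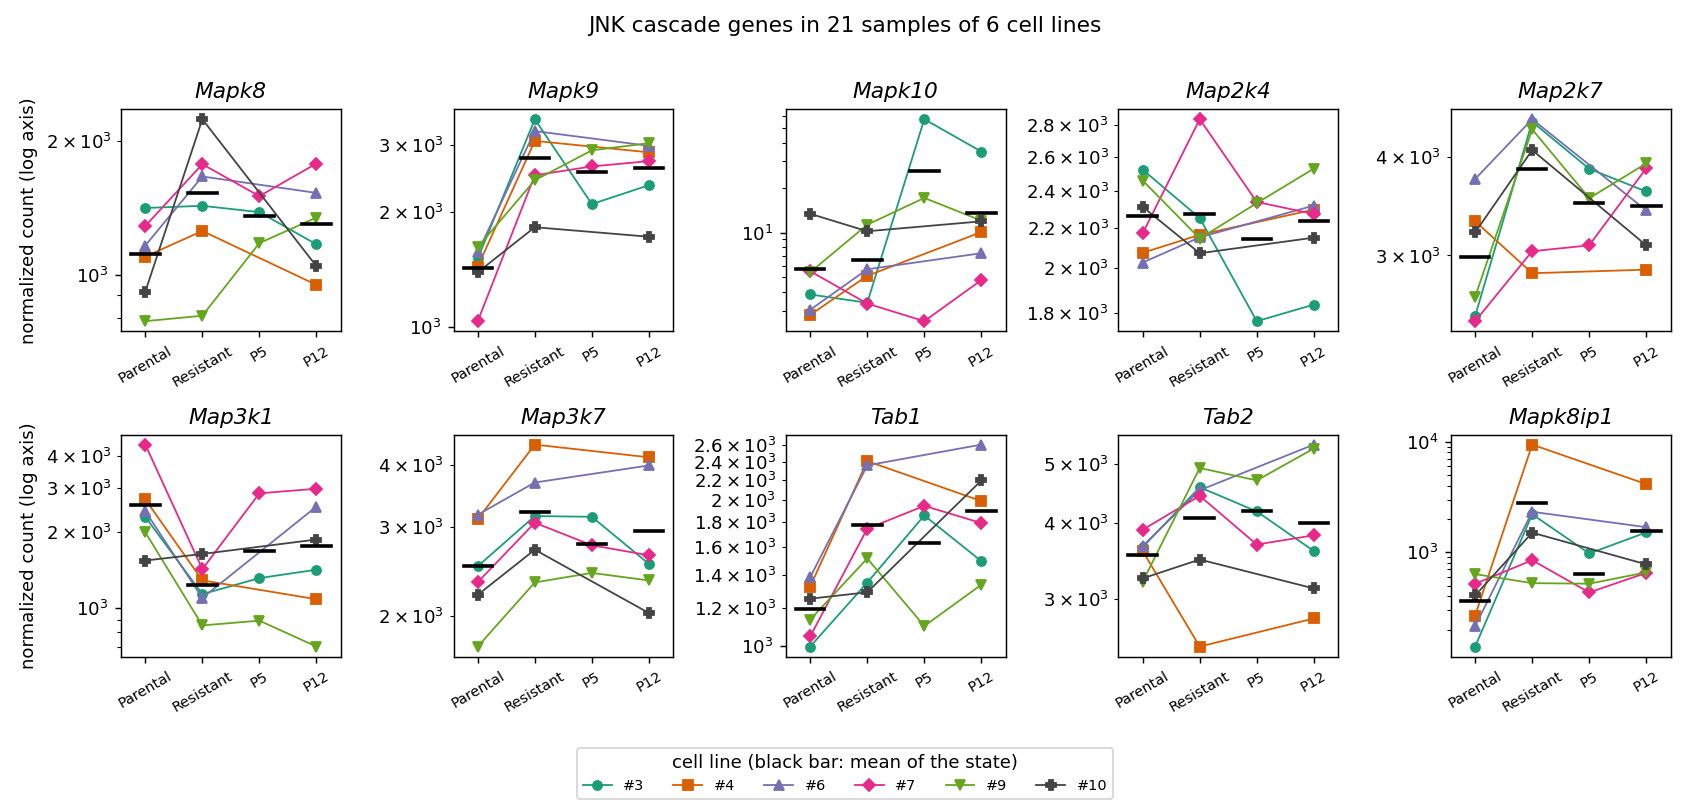
Normalized counts (log axes, a separate scale for each gene) of the 10 JNK cascade genes in parental, resistant, P5 and P12 cells, with a color and symbol for each of the 6 lines and black bars for the mean of a state. The 6 resistant values of Mapk9 lie above the 6 parental values, those of Mapk8ip1 spread from 526 to 9412, and those of Map2k4 keep the parental range apart from line #7.

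To ask which steps of the cascade differ between MEKi resistant and parental cells, each gene was compared between states with limma over the 19300 genes that passed a filter on low values, all 10 members among them. A gene was called at an adjusted p below 0.01 with a log2 fold change beyond 1 in either direction, and changes without a fold minimum were read at an adjusted p below 0.05. Of the 10 members 1 was called between resistant and parental cells, Mapk8ip1, against 5.3% of all genes tested, so that the count of members called was close to the background. Without the fold minimum 2 members passed, Mapk9 and Mapk8ip1, both higher, against 15.6% of all genes (7.73% higher and 7.9% lower). With the line as a block these counts were 2 members (all genes 10.5%) and 5 members (all genes 26%). The median log2 change of the 10 members was 0.36 and that of all genes -0.00, while the median absolute change was 0.39 for the members and 0.50 for all genes.

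Of the 3 JNKs, Mapk9 rose in resistant cells. It encodes JNK2 and lies on chr11:49846751-49886421 (plus strand, mm10). Its normalized counts in parental cells were 1036 at the lowest, 1477 at the median and 1621 at the highest, and in resistant cells 1828, 2792 and 3513. All 6 resistant values lay above all 6 parental values, a separation that 5.99% of the genes tested had between these states in either direction. The log2 change was 0.94 with a standard error of 0.177 (1.91-fold, limma adjusted p = 0.00166), and within lines the difference ran from 0.39 in line #10 to 1.27 in line #7. Without line #9 or line #10 the log2 change was 1.01 or 1.04, which passes the fold minimum, and Mapk9 was called. In bulk RNA a change in the RNA of each cell and a change in the share of cells that hold the RNA cannot be told apart, here and in all comparisons that follow.

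The 250 bases before the start of Mapk9 (RefSeq, GRCm38.p6, chr11:49846501-49846750, plus strand) are shown because Mapk9 is the kinase of the list that rose, and CpG dinucleotides, printed in capitals, are where DNA methylation, which the study followed with other assays, sits in mammalian genomes.
Mapk9: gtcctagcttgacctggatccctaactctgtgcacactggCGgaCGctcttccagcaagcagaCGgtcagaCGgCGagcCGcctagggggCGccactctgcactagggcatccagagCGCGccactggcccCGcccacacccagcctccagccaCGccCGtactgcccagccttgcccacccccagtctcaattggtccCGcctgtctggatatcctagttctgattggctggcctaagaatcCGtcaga
The stretch holds 14 CpGs. In the window of 300 bases that adds the first 50 bases of the transcript there were 23, more than in 78.5% of the 32841 RefSeq promoters, whose median was 7. Methylation of these bases is not analysed here.

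Mapk8, which encodes JNK1 (chr14:33377898-33447158, minus strand), had 785, 1131 and 1414 normalized counts as the lowest, median and highest parental values and 808, 1548 and 2243 as the resistant ones. The ranges overlapped, although the resistant value was the higher one in all 6 lines. This direction in every line was seen in 8.99% of all genes. In lines #3 and #9 the difference was near 0 (1414 to 1430 and 785 to 808), and in line #10 the count went from 915 to 2243. The log2 change of 0.42 (standard error 0.220) did not pass the test (limma adjusted p = 0.214).

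Mapk10, which encodes JNK3, the form known from neurons, was barely detected. It reached 10 normalized counts in 9 of 21 samples, lay at or under 3 reads in 2 and had its highest values in line #3 without the drug, 57.5 in P5 and 34.9 in P12, against 3.85 in parental and 3.38 in resistant cells of that line. In all other samples it lay between 2.55 and 17.1, and no comparison of states passed the test (lowest limma adjusted p = 0.407, P12 versus parental). Its share of the summed JNK level per kb was at most 1.14%.

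**Figure D2:**
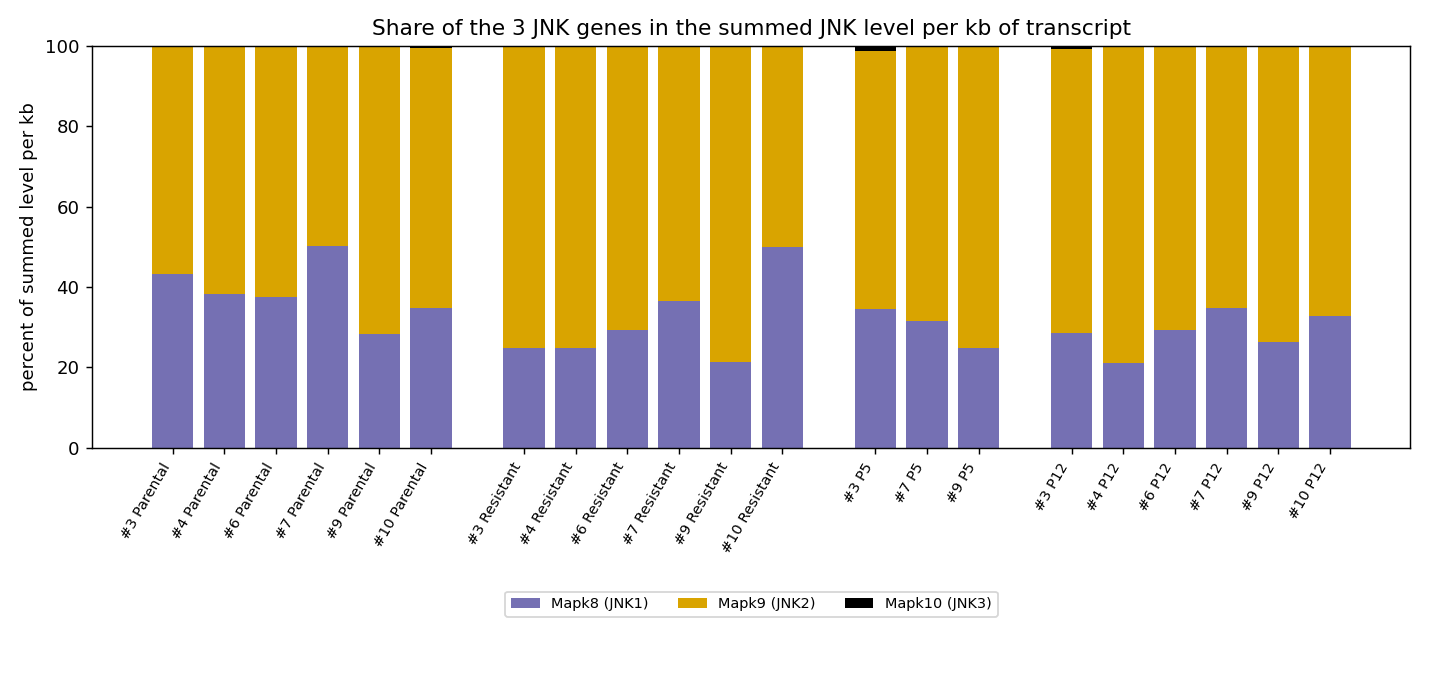
Share (percent) of Mapk8, Mapk9 and Mapk10 in the summed normalized count per kb of the 3 JNK genes, with a stacked bar for each of the 21 samples. Mapk8 makes up 28.2% to 50.2% in parental and 21.2% to 49.9% in resistant cells, where the bar of line #10 stands above the others.

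The balance of the main JNKs followed from these values. The log2 ratio of Mapk8 to Mapk9 (normalized counts, not per kb) averaged -0.38 in parental, -0.89 in resistant and -1.01 in P12 cells. It was lower in resistant than in parental cells in 5 of 6 lines, by -0.52 ± 0.74 (SD, n = 6 lines, exact two-sided sign-flip permutation test, p = 0.15625, adjusted over 6 tests 0.375). In line #10 the ratio moved the other way, and there Mapk8 went from 34.7% to 49.9% of the JNK level per kb. P12 cells had a lower ratio than parental cells in 6 of 6 lines, by -0.64 ± 0.45 (n = 6 lines, exact permutation p = 0.03125, the smallest that 6 lines allow, adjusted 0.1875).

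The MAP2Ks, which phosphorylate JNK, showed no change that passed the test. Map2k4 encodes MKK4, which also acts on p38, and lies on chr11:65688243-65788297 (minus strand). It had 2027, 2241 and 2522 normalized counts as lowest, median and highest parental values and 2072, 2157 and 2840 as resistant ones. The log2 change was 0.00 with a 95% interval of -0.24 to 0.25 (limma adjusted p = 0.994), the narrowest interval among the members, and 3 lines were higher and 3 lower. Map2k7 encodes MKK7, which acts on JNK alone (chr8:4238740-4247897, plus strand), and had 2476, 2934 and 3751 normalized counts in parental and 2848, 4208 and 4466 in resistant cells. It was higher in 5 of 6 lines, with line #4 lower (3315 to 2848), and the log2 change of 0.37 (standard error 0.146) had a limma adjusted p of 0.0959. The log2 ratio of Map2k4 to Map2k7 was lower in resistant cells in 4 of 6 lines, by -0.36 ± 0.52 (n = 6 lines, exact permutation p = 0.1875, adjusted 0.375).

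Of the MAP3Ks at the head of the cascade, neither passed the test in the main fit, which has no block for the line. Map3k1 encodes MEKK1 (chr13:111746428-111808993, minus strand) and had 1543, 2360 and 4451 normalized counts as lowest, median and highest parental values against 853, 1211 and 1638 in resistant cells. It was lower in 5 of 6 lines by a log2 difference of -1.02 to -1.64, and in line #10 it was at 1543 in parental and 1638 in resistant cells, which makes the ranges overlap. The log2 change of -1.001 (standard error 0.338) had a limma adjusted p of 0.0503 and was not called. With the line as a block the adjusted p was 0.00608 and the fall was called. Over the alternatives tried the adjusted p ran from 0.00608 to 0.146. When a line was left out, without a block, the lowest limma adjusted p was 0.0458.

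The 250 bases before the start of Map3k1 (RefSeq, GRCm38.p6, chr13:111808994-111809243, minus strand) are shown for the contrast with Mapk9, again with CpGs in capitals.
Map3k1: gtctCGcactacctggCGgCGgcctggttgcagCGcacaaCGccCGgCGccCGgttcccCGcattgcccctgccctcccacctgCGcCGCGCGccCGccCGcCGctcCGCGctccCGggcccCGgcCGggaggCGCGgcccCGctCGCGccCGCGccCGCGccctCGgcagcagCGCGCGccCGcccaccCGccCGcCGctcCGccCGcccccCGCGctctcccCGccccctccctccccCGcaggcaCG
They hold 45 CpGs against 14 for Mapk9. The window of 300 bases held 55, more than in 99.7% of all promoters, and windows of Mapk8 (45), Tab2 (44) and Map3k7 (36) were also rich in CpGs. The second entries of Mapk8 and Tab2 held only 1 and 2 CpGs. Promoter entries were matched for 8 of the 10 members, 13 entries in all. Searched on both strands, the AP1 motif TGANTCA was found in 1 of these 13, at the second start of Map2k7 (7.81% of all promoters hold it), and the CRE motif TGACGTCA in 1, of Mapk10 (1.79%). The ETS motif CCGGAAGT was in 0 of the 13 (3.89% of all promoters). These are matches of letters in a window and no more.

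Map3k7 encodes TAK1, the MAP3K that answers to cytokine receptors (chr4:31964097-32023467, plus strand). Its normalized counts were 1736, 2421 and 3178 in parental and 2330, 3111 and 4382 in resistant cells, as lowest, median and highest. The ranges overlapped, but within lines the resistant cells were higher in 6 of 6 by a narrow margin of 0.36 ± 0.099 (log2, SD, n = 6 lines). The limma adjusted p was 0.243, and with the line as a block it was 0.0152. Differences between lines made up 76.0% of the variance of Map3k7 over the 18 samples of the 3 states with all lines, the highest share of the members, against a median of 35.8% over all genes tested. For Mapk9 the state made up 70.4% (median of all genes 19.8%).

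Tab1, the subunit that activates TAK1 (chr15:80133127-80161707, plus strand), had 998, 1194 and 1387 normalized counts in parental and 1291, 1631 and 2405 in resistant cells. It was higher in 6 of 6 lines, from 1252 to 1291 in line #10 up to 1327 to 2405 in line #4. The log2 change of 0.54 (standard error 0.202) had a limma adjusted p of 0.0740, and of 0.0176 with the line as a block. Tab2, which tethers TAK1 to ubiquitin chains (chr10:7905653-7956230, minus strand), had 3205, 3625 and 3902 normalized counts in parental and 2506, 4484 and 4931 in resistant cells. It was higher in 5 lines and lower in line #4 (3598 to 2506), with a log2 change of 0.17 (standard error 0.178, limma adjusted p = 0.576).

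Mapk8ip1 showed the largest change of the members in resistant cells. It encodes JIP1, a scaffold that holds JNK, MKK7 and their upstream kinases together (chr2:92383676-92401263, minus strand). In parental cells it had 140 normalized counts in line #3, 268 in #4, 215 in #6, 520 in #7, 635 in #9 and 407 in #10. In resistant cells the values in the same order were 2208, 9412, 2324, 848, 526 and 1504. Lines #3, #4 and #6, the lowest parental samples, held the highest resistant values, line #7 differed by 0.70 on the log2 scale and line #9 was lower by -0.27, so that the ranges overlapped. The log2 change was 2.47 with a standard error of 0.589 (5.55-fold, limma adjusted p = 0.00836). The call rested on several lines, since without line #3, #4, #6 or #10 the adjusted p was 0.0577, 0.0209, 0.0523 or 0.0270, at a log2 change of 1.94 to 2.59.

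**Figure D3:**
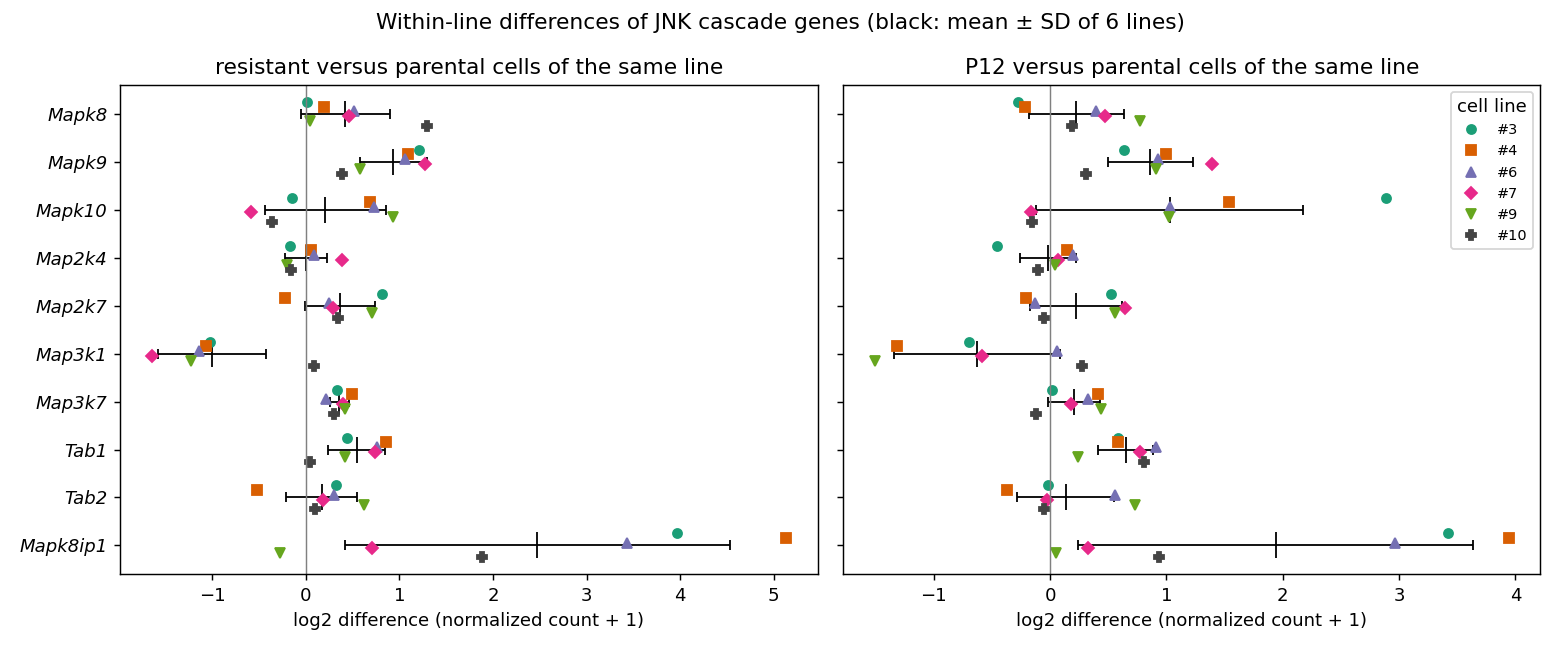
Log2 difference (normalized count + 1) of each JNK cascade gene between resistant and parental cells (left) and between P12 and parental cells (right) of the same line, with a symbol for each line and black bars for the mean ± SD of 6 lines. In the left panel all 6 lines lie to the right of 0 for Mapk8, Mapk9, Map3k7 and Tab1, and 5 of 6 lie to the left for Map3k1.

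The epithelial cadherin Cdh1 differed between resistant and parental cells by a log2 difference of -8.56 in line #3, -12.84 in #4, -9.21 in #6, -1.70 in #7, -6.40 in #9 and -3.92 in #10. Resistant cells of line #4 had 4.01 normalized counts of Cdh1, under the level of 3 reads in that sample (4.07). The size of the difference in line #4 is therefore uncertain. Lines #3, #4 and #6 thus had both the largest differences of Cdh1 and the largest of Mapk8ip1 (3.97, 5.13 and 3.43), whereas line #9 had a large difference of Cdh1 and none above 0 of Mapk8ip1, and started from 816 normalized counts of Cdh1 against 26491 or more in the other parental lines. Map3k1 did not follow this order, since line #7, with the smallest difference of Cdh1, had its largest (-1.64). The part of the epithelial state in these differences was not tested.

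**Figure D4:**
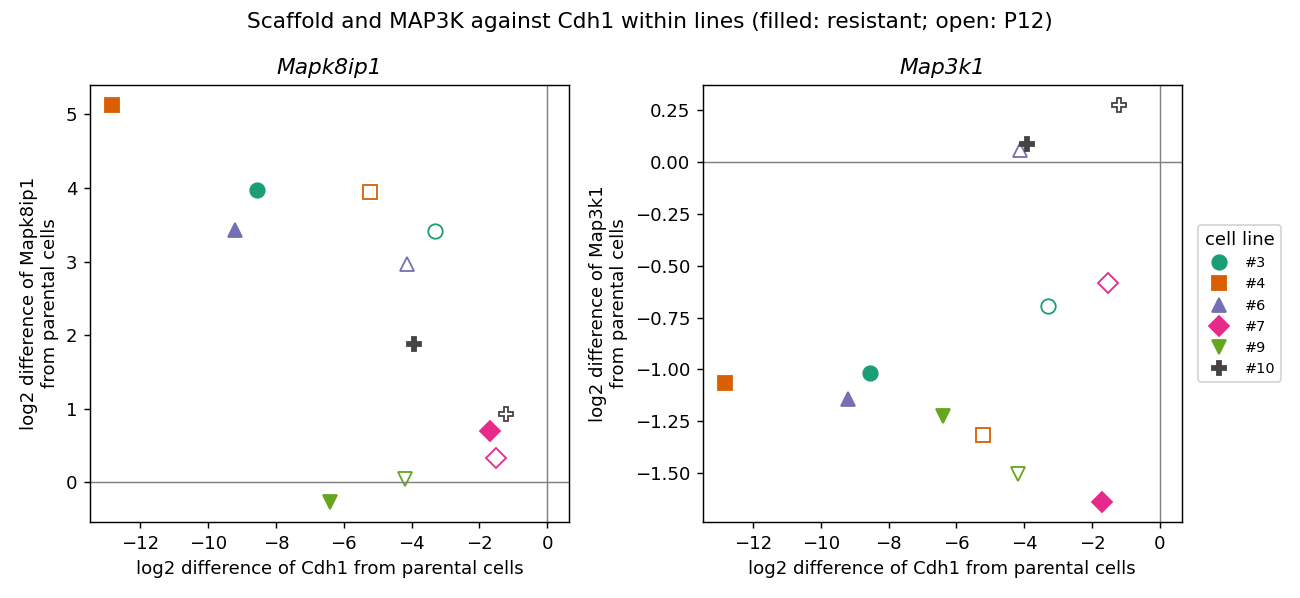
Log2 difference from parental cells of Mapk8ip1 (left) and Map3k1 (right) on the vertical axes against that of Cdh1 on the horizontal axes, with filled symbols for resistant and open symbols for P12 cells and a symbol for each of the 6 lines. Lines #3, #4 and #6 lie at the upper left for Mapk8ip1, and lines #7 and #9 near 0; both axes share the parental samples.

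The effect of drug withdrawal was read from P12 and P5 cells. Between P12 and resistant cells 0 of the 10 members passed in limma, with or without the fold minimum (2.13% and 6.22% of all genes), 0 had an unadjusted p under 0.05 (19.8% of all genes), and 0 passed with the line as a block (4.52% and 12.7%). The lowest adjusted p was 0.482, that of Mapk10. The median absolute log2 change of the members was 0.15, against 0.40 over all genes. Mapk9 had 1726, 2801 and 3039 normalized counts as lowest, median and highest P12 values against 1828, 2792 and 3513 in resistant cells. Its log2 change was -0.07 (95% interval -0.44 to 0.30, limma adjusted p = 0.873). After upper-quartile scaling the log2 change of Mapk9 was 0.0184, and it did not pass. Mapk8ip1 was lower in P12 than in resistant cells in 5 of 6 lines, by -0.53 ± 0.52 (log2, SD, n = 6 lines, limma adjusted p = 0.686). Map3k1 was higher in 4 lines and lower in 2, with a log2 change of 0.37 whose 95% interval of -0.33 to 1.08 takes in both no change and a return to the parental level.

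Set against parental cells, which both comparisons share, P12 cells had 0 members called (0.114% of all genes, and 0 with the line as a block, 0.523%) and 1 without the fold minimum (0.658%), Mapk9, and 3 had an unadjusted p under 0.05 (15.3% of all genes). The log2 change of Mapk9 was 0.86 with a standard error of 0.177 (1.82-fold, limma adjusted p = 0.0305), and all 6 P12 values lay above the highest parental value of 1621. Without line #3, #4, #6 or #7 the adjusted p was 0.118, 0.164, 0.193 or 0.0897, at log2 changes of 0.76 to 0.91, and the change did not pass. Mapk8ip1 had 651, 1145 and 4135 normalized counts as lowest, median and highest P12 values, all above the highest parental value of 635, although lines #7 and #9 lay just above it at 651 and 658, and its log2 change of 1.94 (standard error 0.589) did not pass (limma adjusted p = 0.125, and 0.05005 with the line as a block). Such a separation of ranges was seen in 1.52% of all genes. Tab1 was higher in P12 than in parental cells in 6 of 6 lines (as were 6.46% of all genes), with a log2 change of 0.65 (standard error 0.202, adjusted p = 0.130 in limma and 0.0296 with the block). With the block 2 members passed, Mapk9 and Tab1, and 5.32% of all genes. The log2 changes from parental cells in resistant and in P12 cells, side by side, were 0.94 and 0.86 for Mapk9, 2.47 and 1.94 for Mapk8ip1, 0.54 and 0.65 for Tab1, 0.36 and 0.21 for Map3k7 and -1.001 and -0.63 for Map3k1. For Dusp6 they were -7.31 and 0.06.

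P5 cells came from 3 lines, in which an exact test over lines cannot go below p = 0.25, so that they are described mainly by their values. Mapk9 had 2103 normalized counts in line #3, 2640 in #7 and 2910 in #9, above the parental range. Mapk8ip1 had 975, 433 and 520 in the same order. The value of line #3 stood between its parental 140 and resistant 2208. Those of lines #7 and #9 were below both their parental (520 and 635) and their resistant values (848 and 526). Map3k1 had 1314, 2851 and 891, below the parental value of each line. In limma 0 of the 10 members passed under either rule for P5 against resistant cells (0.378% and 2.07% of all genes) or for P5 against parental cells (0.0259% and 0.0466%). At an unadjusted p under 0.05 there was 1 member in each, Mapk8ip1 (log2 change -1.56, adjusted p = 0.305) and Mapk9 (0.84, adjusted p = 0.190), against 15.4% and 10.4% of all genes. These estimates set P5 cells of 3 lines against the other state in every line, including lines without P5 cells. Within the 3 lines the mean log2 difference of Mapk8ip1 between P5 and resistant cells was smaller, -0.72 ± 0.62 (SD, n = 3 lines). That of Mapk9 between P5 and parental cells was 0.89 ± 0.44.

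Among the 42 other genes of the JNK pathway that were listed, 41 were in the table and 40 passed the filter. Between resistant and parental cells 2 of the 40 were called higher and 1 lower (all genes 2.57% and 2.73%), and without the fold minimum 5 were higher and 3 lower (all genes 7.73% and 7.9%). With the line as a block 14 of the 40 passed without the fold minimum, against 26% of all genes. Sh3rf1, or POSH, another scaffold that holds JNK and its upstream kinases, fell from 2115, 2835 and 3874 normalized counts (lowest, median and highest parental values) to 261, 543 and 1292 in resistant cells, a log2 change of -2.40 (standard error 0.357, limma adjusted p = 0.000256). It rose again in P12 cells, by 2.12 over resistant cells (adjusted p = 0.00154), to 1009, 2485 and 3630. The changes of the scaffolds Sh3rf1 and Mapk8ip1 in resistant cells thus had opposite directions, and the P12 change passed for Sh3rf1 and not for Mapk8ip1, a contrast that was not tested itself.

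The phosphatase Dusp8, which removes the activating phosphates of JNK and p38, had 48.5, 182 and 299 normalized counts in parental, 342, 979 and 2055 in resistant and 53.6, 132 and 508 in P12 cells. It rose in resistant cells by 2.62 (log2, standard error 0.534, limma adjusted p = 0.00288) and fell by 2.72 in P12 cells (adjusted p = 0.00449). The 4 JNK phosphatases of the list all had estimates above 0 in resistant against parental cells and below 0 in P12 against resistant cells. In each comparison 1 was called (all genes 5.3% and 2.13%). Over all genes 49.6% and 51.7% of the estimates were above 0 in these comparisons, and the 4 were not tested as a set. The MAP4K Map4k3, a kinase that feeds into the cascade, rose from 526, 684 and 844 normalized counts to 1083, 1400 and 2574 (log2 change 1.19, standard error 0.234, limma adjusted p = 0.00217). Of the 11 other MAP3Ks tested 0 were called, 2 had an unadjusted p under 0.05 (29.2% of all genes) and 1 was lower without the fold minimum, Map3k5, at an adjusted p of 0.04997. With the line as a block 4 of the 40 genes were called higher and 2 lower, Map4k2, Dusp1 and Map4k1 being added (all genes 4.85% and 5.6%). Between P12 and resistant cells 2 of the 40 were called, Sh3rf1 and Dusp8 (all genes 2.13%), and 3 with the block (all genes 4.52%). The block added a fall of Dusp10 (log2 change -2.02, limma adjusted p = 0.000911 with the block and 0.0207 without).

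Jun, the substrate that names the kinases, had 442, 1082 and 3406 normalized counts as lowest, median and highest parental values and 1465, 2633 and 4359 in resistant cells. It was higher in 5 of 6 lines and lower in line #9 (3406 to 1465), and its log2 change of 1.36 (standard error 0.576) did not pass (limma adjusted p = 0.118, and 0.0309 with the line as a block). Of the 6 substrates listed 0 were called in limma in any of the 3 comparisons of states with 6 lines. An unadjusted p under 0.05 was seen for 1 between resistant and parental cells (Jun), 1 between P12 and resistant cells (Jund) and 0 between P12 and parental cells (all genes 29.2%, 19.8% and 15.3%). With the line as a block Jund passed without the fold minimum in resistant against parental cells (log2 change 0.91, limma adjusted p = 0.0349, all genes 26%). It also passed in P12 against resistant cells (log2 change -1.14, limma adjusted p = 0.0209, all genes 12.7%). In P12 against parental cells 0 of the 40 other pathway genes passed in limma, with or without the fold minimum, against 6 at an unadjusted p under 0.05 (all genes 15.3%) and 3 at an adjusted p below 0.05 with the block (Dusp10, Map3k9 and Sh3rf3, all genes 5.32%).

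**Figure D5:**
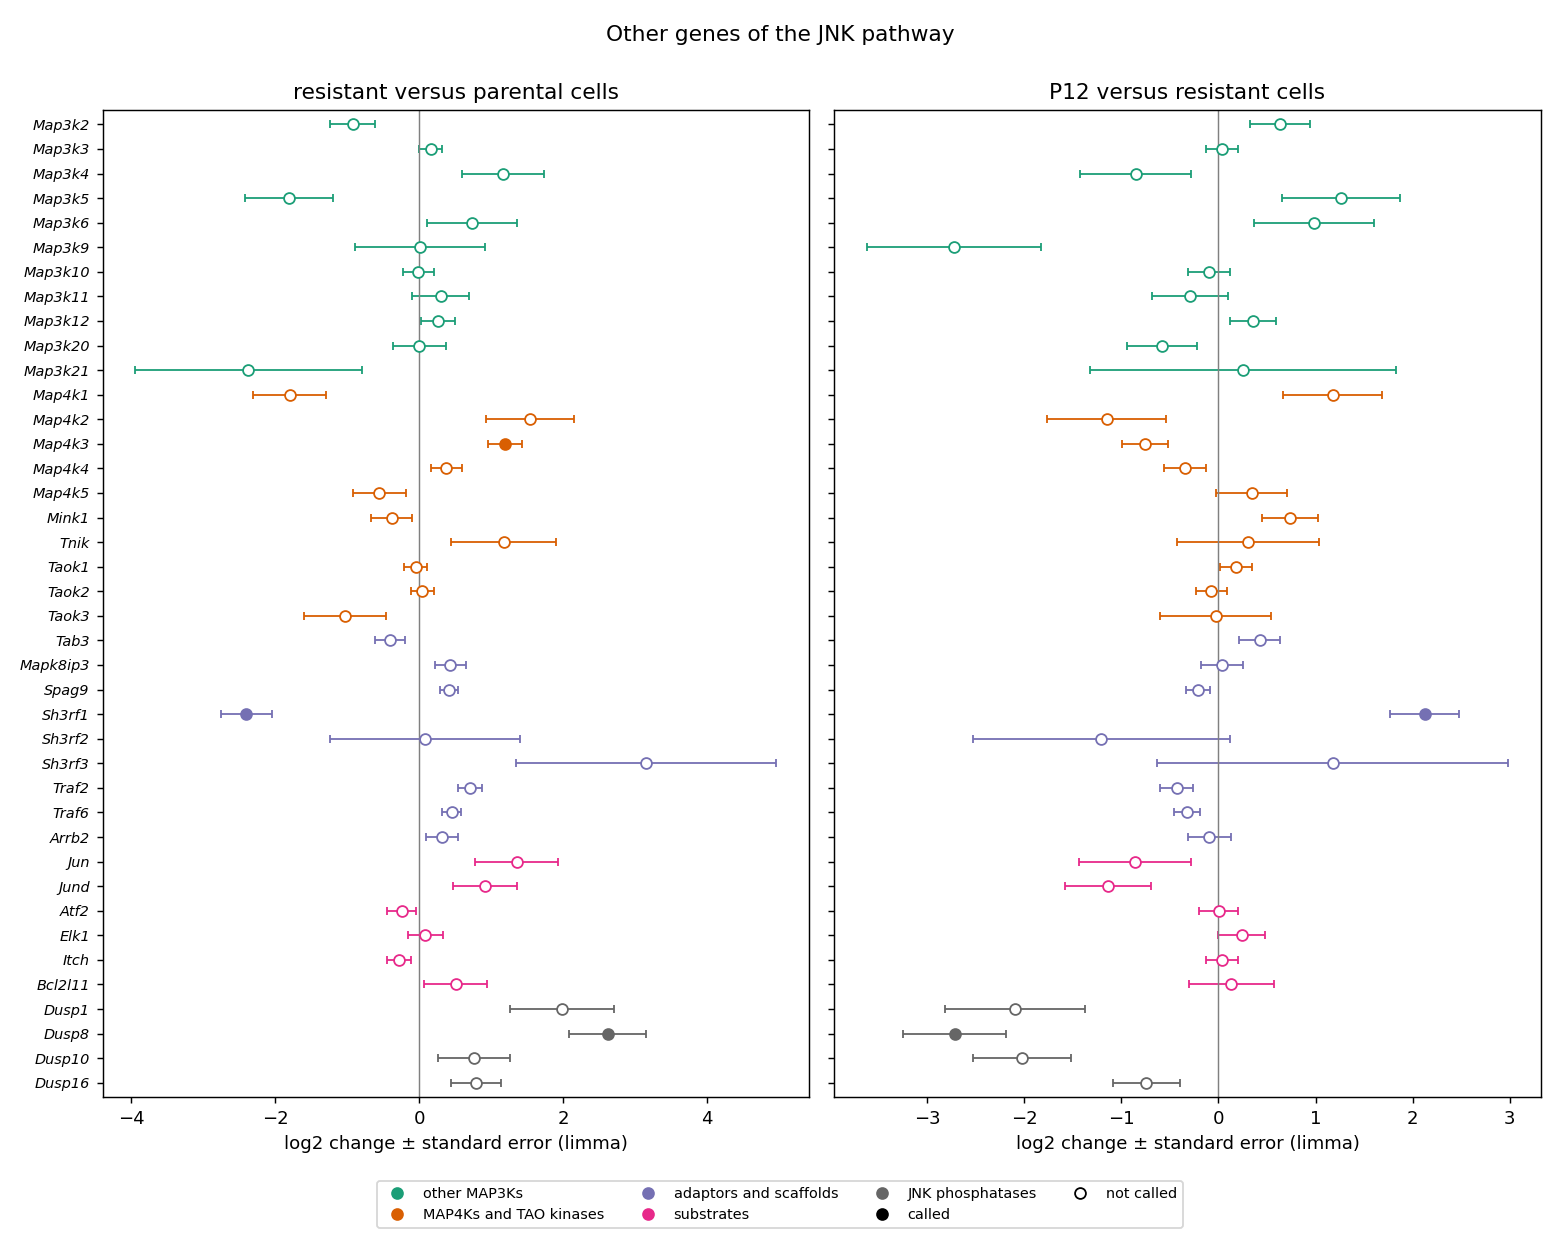
Log2 change ± standard error (limma) of the 40 other JNK pathway genes tested, colored by role, for resistant versus parental cells (left) and P12 versus resistant cells (right), with filled points for called genes. Map4k3, Dusp8 and Sh3rf1 are filled on the left, and Dusp8 and Sh3rf1 on the right with the opposite sign.

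In the other MAPK arms 1 of 12 genes was called between resistant and parental cells (all genes 5.3%), and 0 were called between P12 and resistant (2.13%) or P12 and parental cells (0.114%), with 1 and 0 at an unadjusted p under 0.05 (19.8% and 15.3%). Without the fold minimum 2 of the 12 passed between resistant and parental cells, both lower, Map2k6 and the p38 kinase Mapk13 (log2 change -2.52, standard error 0.822, limma adjusted p = 0.0427). Mapk13 was at low counts, with a median of 21.5 normalized counts in parental and 2.73 in resistant cells (0 to 25.3). The resistant median lay within the 2.31 to 4.07 normalized counts that equal 3 reads, so the size of this fall is uncertain. Map2k6 encodes MKK6, which activates p38, and fell from 376, 765 and 985 normalized counts in parental to 11.5, 119 and 377 in resistant cells (log2 change -2.71, standard error 0.619, limma adjusted p = 0.00640). In P12 cells it had 389, 586 and 1452 normalized counts, a log2 change of 2.70 over resistant cells (adjusted p = 0.0127, and 0.00310 with the line as a block, with which it was called).

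Across the 21 samples, which share lines and states, the members followed each other loosely. Of their 45 pairs the highest Pearson correlations of log2 values were those of Map3k7 with Tab1 (r = 0.62), Tab1 with Mapk8ip1 (0.62) and Mapk9 with Mapk8ip1 (0.62), and the lowest that of Mapk9 with Map3k1 (-0.60). The genes most like a member over the 21 samples were Slc41a2 (r = 0.87) and Gm43719 (0.86) for Mapk9, Nsd1 (0.90) and Sowahb (0.87) for Map3k1, Parp10 (0.90) and Ccdc28b (0.89) for Mapk8ip1, and Tmem234 (0.89) and Gabra3 (0.86) for Map3k7. For Tab1 they were Mpst (0.86) and Tnxb (0.83), for Tab2 Supv3l1 (0.88) and Shprh (0.86), and for Mapk8 Abhd17b (0.87) and Cdc37l1 (0.82). Map2k7 was nearest to Upk1a and 4930590J08Rik (both 0.79), Map2k4 to Rnf115 (0.76) and Cldn12 (0.73), and Mapk10, at its low counts, to Gm37701 (0.82) and Col2a1 (0.80).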

How the data were processed

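RNA was isolated by the authors from cell lines in 4 states (21 samples), made into libraries with a stranded mRNA kit and sequenced on more than a single sequencer model, which the sources used here do not assign to samples. Per the labels, reads were demultiplexed with CASAVA 2.17 or bcl2fastq 2.19, quantified with Salmon 0.12 and normalized with DESeq2 1.18 (build mm10), and per the study's methods trimmed with Skewer and summed to genes with TXImport. The annotation release is not given in the sources used here. The deposited table holds a signal value per gene and sample, the estimated count as normalized by the authors, which is not whole and not scaled to a fixed total. Whether transcript length entered that normalization is not given in the sources used here.

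Whole reads were not recovered, as 33.8% to 62.2% of values under 40 fell on multiples of a step (tolerance 0.02 of a step), so no count test was run. Log2(value + 1) of the 19300 genes with at least 10 in at least 3 samples was fitted with limma 3.58.1 (R 4.3.3, trend, no covariate, 21 samples, Benjamini-Hochberg adjustment over all genes). Fold changes are on that scale. Same-numbered samples come from the same cell line, and their deviations from the state means correlated with r of 0.159 to 0.352 (resistant and parental), 0.337 to 0.520 (P12 and resistant) and 0.00819 to 0.510 (P12 and parental), so a fit with the line as a block was run as an alternative. For ratios, the signs of the line differences were flipped in all ways (exact permutation test, two-sided). Levels per kb used the longest coding transcript of GENCODE M21 (GRCm38), or all exons of the gene joined where stated. Promoters came from RefSeq (GRCm38.p6). Python 3.11.15, pandas 2.3.3, scipy 1.17.1 and matplotlib 3.10.9 were used, and the steps were tested on simulated data.

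A further allele of the mice and a marker gene are not reported here. The members and lists were chosen with earlier results of these data known, and no adjustment was made over a list alone. Named were all 10 members, other pathway genes called between states, the 4 genes of the drug check of which Dusp6 is shown, and the 2 genes most correlated with each member. Jun, Jund, Map3k5, Map3k9, Sh3rf3, Map4k1, Map4k2, Mapk13, Dusp1 and Dusp10 were added after their values were seen. In the main fit p-values are set against the spread between lines within a state, and samples of the same line are taken as independent. With the line as a block they are set against the spread that is left after differences between lines are removed. Each line had a single culture per state. Alternatives were other pseudocounts (0.5 and 8), no filter or a mean of at least 100, upper-quartile scaling, no trend, the compared states alone and each line left out.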

Additional observations from a re-analysis of the deposited data

Results flagged for a closer look

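In 7 of 60 groups of 6 values of the members (normalized counts in a state, or differences within lines), the highest value stood apart by Dixon's test, for which the gap to the next value must exceed 0.625 of the range, and chance gives about 1 in 20 (5%). Mapk8ip1 in line #4 gave 2 of them, with 9412 normalized counts in resistant cells (next 2324) and 4135 in P12 cells (next 1686). Mapk10 gave 3, with 13.4 normalized counts in parental cells of line #10 (next 5.50), 34.9 in P12 cells of line #3 (next 12.0) and a log2 difference of 3.03 between P12 and resistant cells of line #3 (next 0.85), all at low counts. Map2k4 had 2840 normalized counts in resistant cells of line #7 (next 2251). The log2 difference of Map3k1 between resistant and parental cells was 0.0867 in line #10, against -1.02 or lower in the other lines.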

How the results depend on the processing

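The count of members called between resistant and parental cells was 1, and 0 without a filter on low values, 0 without a trend, 0 with the 2 compared states alone, 2 with the cell line as a replicate block and 0 to 2 when a line was left out. Without the fold minimum the count was 2, and 5 with the block and 1 to 3 without a line. It was 3 with a mean of at least 100, with upper-quartile scaling or with the 2 compared states alone. For P12 against parental cells it was 1, and 2 with the block and 0 to 1 without a line, being 0 without line #3, #4, #6 or #7. In the main fit the change behind the first count was that of Mapk8ip1. Its adjusted p ran from 0.00360 to 0.0577 (0.0123 without a filter, 0.0107 without a trend, 0.0196 with 2 states), at log2 changes of 1.94 to 3.02. Without line #9 Mapk9 was called beside Mapk8ip1, and without line #10 Mapk9 was called in its place. In the blocked fit Map3k1 was added, and it changed no other call of a member under that rule. Of 695 single-gene values under 14 alternatives, 659 kept their direction and side of the threshold for a call (adjusted p and fold together), 7 lost the call, 3 gained it and 26, of changes that were not called in either fit, had the other sign. After upper-quartile scaling these were the log2 changes of Mapk9 in P12 (0.0184) and P5 (0.00413) against resistant cells, of Map2k4 in resistant (-0.0397) and P12 (0.0299) against parental and in P12 (0.0697) and P5 (0.0171) against resistant cells, and of Tab2 in P12 against resistant cells (0.0563). With the replicate block they were those of Tab1 (0.0817) and Tab2 (-0.0470) in P5 against resistant cells. When a line was left out, the changes in P5 against resistant cells ran from -0.186 to 0.0113 for Mapk8, -0.231 to 0.109 for Mapk9, -0.167 to 0.0478 for Map2k4, -0.119 to 0.572 for Map3k1, -0.306 to 0.105 for Tab1 and -0.0653 to 0.188 for Tab2. Those in P12 against resistant cells ran from -0.153 to 0.0271 for Mapk9, -0.0740 to 0.0379 for Map2k4, -0.0250 to 0.183 for Tab1 and -0.0925 to 0.0271 for Tab2. Those of Map2k4 against parental cells ran from -0.0744 to 0.0425 in resistant, -0.0621 to 0.0683 in P12 and -0.162 to 0.0838 in P5 cells. The ratio of Mapk8 to Mapk9 between P12 and resistant cells ran from -0.23 to 0.0565 when a line was left out, the sign changing without line #10, and that between P12 and parental cells from -0.74 to -0.52, each with an exact permutation p = 0.0625, the smallest that 5 lines allow. Over all genes, 1023 were called between resistant and parental cells, 2017 with the block and 450 to 1237 without a line. With a mean of at least 100 Mapk10 was not tested, and its depth limits every statement on it. The causes of these shifts were not tested.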
